A study of Caenorhabditis elegans with 2 samples.

Results

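The Hox genes of Caenorhabditis elegans are 6 homeobox genes that give cells their position along the body axis, and the binding of BLMP-1 around them was described from its deposited peak lists. The members were taken by name: ceh-13, lin-39, mab-5, egl-5, php-3 and nob-1, out of 19973 nuclear protein-coding genes. For each gene every peak summit was taken from 20 kb upstream of the gene start to the gene end, stopping at the next Hox gene. The peaks come from chromatin immunoprecipitation and sequencing of whole hermaphrodite L2 larvae of strain OP109, genotype unc-119(ed3) III; wgIs109, a stable transgenic line that makes BLMP-1 with a GFP-FLAG tag at its C terminus. There were 2 biological replicates of this 1 group, numbered 2 and 3, and no other genotype, stage or treatment was compared. Both replicates carry the unc-119 mutation and the transgene, and the labels do not give the promoter that drives it. Whole animals were used, so the lists cannot say in which cells the protein was bound.

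BLMP-1 is a zinc finger factor related to mammalian PRDM1 and acts in the epidermis and in developmental timing. Hox proteins bind DNA through a homeodomain, commonly together with a Pbx-type partner, and in the worm they set the fates of epidermal, muscle and neuronal cells by region. In order along the body, ceh-13 is the labial-type gene of the front, lin-39 acts in the mid-body and is needed for the vulval precursor cells, and mab-5 acts behind it and directs the migration of neuroblasts. The genes egl-5, php-3 and nob-1 are of the Abdominal-B type, and act in the tail and the posterior embryo.

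All 6 genes lie on chromosome III, in 3 pairs (ce11, the same assembly as WBcel235, 1-based). The pair lin-39 (WBGene00003024, 7528641 to 7536632, minus strand) and ceh-13 (WBGene00000437, 7555660 to 7558041, plus strand) point away from each other across 19027 bp with no other protein-coding gene, so both windows share that stretch. The pair mab-5 (WBGene00003102, 7776835 to 7783454, minus strand) and egl-5 (WBGene00001174, 7814374 to 7817141, plus strand) also point away from each other, with cyk-7 between them. The genes php-3 (WBGene00004024, 12074218 to 12077556) and nob-1 (WBGene00003779, 12077793 to 12084316) follow each other on the minus strand. The window of php-3 reached only 236 bp upstream before nob-1, and spanned 3575 bp in all. The other windows spanned from 21409 bp for ceh-13 to 27019 bp for lin-39.

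Thresholded BLMP-1 binding at the Hox genes lay at the lin-39 and ceh-13 pair. In the list thresholded for reproducibility between the replicates, the windows held 2 distinct summits, 1 inside lin-39 and 1 between lin-39 and ceh-13. Thus 2 of the 6 genes, lin-39 and ceh-13, had a thresholded summit, and the same summit accounts for ceh-13 and for 1 of the 2 of lin-39. Over all protein-coding genes 40.2% had a thresholded summit in a window with the same reach, which for those genes did not stop at any neighbour, so the share of Hox genes was near the background. The windows of mab-5, egl-5, php-3 and nob-1 held none.

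The sequences below are the letters beside the strongest lin-39 summit, the other thresholded summit, and a choice of weaker sites: the ceh-13 site with the PRDM1 core, the strongest sub-threshold summit nearest the start of ceh-13, egl-5 and nob-1, and the mab-5 site of replicate 3. The lin-39 sequences lie on either side of the summit base and do not hold it, other weaker sites of equal or greater signal are not printed, and none is printed for php-3. Each is given 5′ to 3′ on the strand of the gene that names it, from the RefSeq genome sequence of WBcel235, with capitals for any match to one of 4 words described below.
lin-39 motif site (chrIII:7534708-7534737): aattcttATCAATCACTTTCACTcgttttc
lin-39, the bases before its internal start (chrIII:7534806-7534935): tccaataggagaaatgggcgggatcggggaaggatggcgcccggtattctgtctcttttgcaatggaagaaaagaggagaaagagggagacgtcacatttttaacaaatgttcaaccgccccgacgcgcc
lin-39, thresholded summit in linc-57 (chrIII:7544401-7544501): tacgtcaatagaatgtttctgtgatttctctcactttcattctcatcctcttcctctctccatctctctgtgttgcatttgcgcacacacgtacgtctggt
ceh-13, distal summit (chrIII:7546622-7546722): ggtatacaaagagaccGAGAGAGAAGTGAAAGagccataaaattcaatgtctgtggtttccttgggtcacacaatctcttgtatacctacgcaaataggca
ceh-13, summit upstream of its start (chrIII:7555023-7555123): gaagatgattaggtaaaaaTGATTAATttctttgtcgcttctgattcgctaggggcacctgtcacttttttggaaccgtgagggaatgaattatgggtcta
mab-5, summit of replicate 3 (chrIII:7779743-7779843): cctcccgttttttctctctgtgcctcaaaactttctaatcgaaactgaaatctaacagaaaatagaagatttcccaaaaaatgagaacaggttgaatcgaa
egl-5, intron summit (chrIII:7814721-7814821): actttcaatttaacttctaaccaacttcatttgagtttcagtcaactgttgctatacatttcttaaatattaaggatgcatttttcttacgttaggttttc
nob-1, summit upstream of its start (chrIII:12084973-12085073): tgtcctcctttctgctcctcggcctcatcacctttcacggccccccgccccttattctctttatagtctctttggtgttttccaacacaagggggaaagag

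The lists differ in what they hold. The relaxed lists mix peaks with background and held 29970 nuclear peaks for the pooled replicates, 19523 for replicate 2 and 25112 for replicate 3, and the thresholded list held 3031. With peaks outside the nuclear chromosomes the pooled list held 30000. Its lowest signal was 2.60, and that of each replicate list was 2.00, so the lists need not reach equally deep. Absence of a weak replicate peak from the pooled list is therefore hard to read. The thresholded peaks were exactly the strongest of the pooled list, so the threshold is a level of pooled signal: the weakest peak inside it had a signal of 27.1 (27.0792) and the strongest one outside it 27.1 (27.0583). The lists give no read counts, so depth is unknown. Signal is the authors' own value on a scale that is not given, and is compared within a list; between lists only ranks are set side by side, and every rank below is among nuclear peaks.

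The summit inside lin-39 was the strongest in any Hox window. It lay at 7534765, in a peak from 7534673 to 7534847, with a pooled signal of 76.9 and rank 540 of 29970. The gene has 2 annotated transcripts, and the summit was 40 bp downstream of the start of the shorter one, in its 5′ UTR. For the longer transcript, which starts at 7536632, the same base lies in an intron. In replicate 2 the summit was 9 bp away, with a signal of 26.7 and rank 811 of 19523, and in replicate 3 it was at the same base, with a signal of 47.3 and rank 537 of 25112. Both replicates thus placed it high in their lists and within 9 bp of each other. At the start of the longer transcript the lists held only a weak summit, 197 bp upstream, with a pooled signal of 8.13 and rank 11485, found in replicate 2 (signal 4.60, 69 bp away) and not within 100 bp in replicate 3. Annotated starts are approximate in the worm, where many transcripts are trans-spliced.

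The summit between the genes lay at 7544451, 7819 bp upstream of lin-39 and 11209 bp upstream of ceh-13, with a pooled signal of 28.1 and rank 2909 of 29970. It fell inside linc-57, a long non-coding RNA gene on the minus strand, 613 bp from its start, and 704 bp from the start of the microRNA gene mir-231, which overlaps the start of linc-57 on the same strand. The replicates did not give it equal strength. Replicate 3 had a summit at the same base with a signal of 24.3 and rank 1792. The nearest summit of replicate 2 was 34 bp away with a signal of 2.03 and rank 19341 of 19523, near the bottom of its list, and the next was 234 bp away with a signal of 5.99 and rank 6560. Among the 3060 strongest peaks of replicate 2 taken alone, only the lin-39 summit was found in the Hox windows. Over all nuclear thresholded summits, 20.3% had a summit within 100 bp among the 3060 strongest of replicate 3 and not of replicate 2, against 61.99% with one in both.

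**Figure D1:**
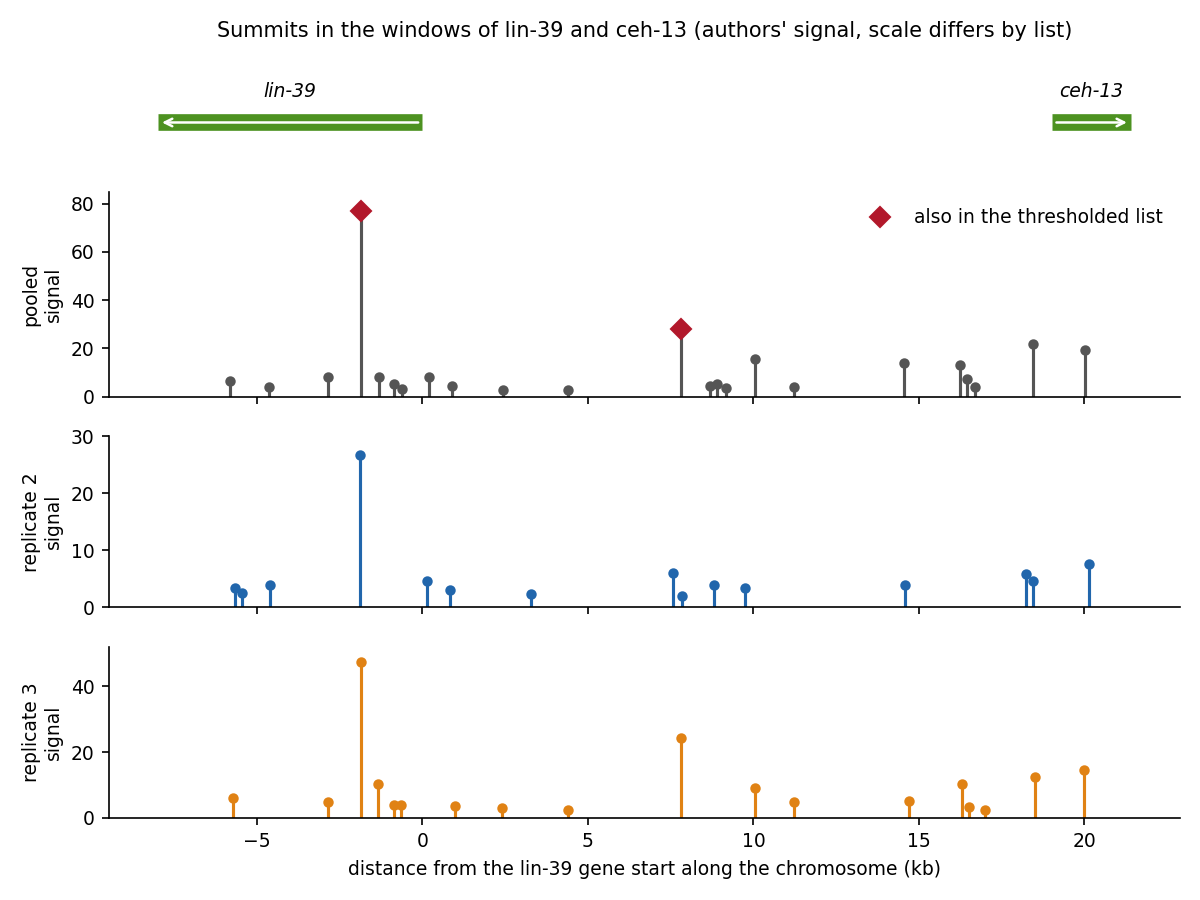
Signal of each summit (vertical axis, the authors' values, a different scale in each list) against distance from the lin-39 gene start in kb, for the pooled list, replicate 2 and replicate 3; diamonds mark the 2 summits also in the thresholded list, and arrows show the direction of each gene. The summit of signal 76.9 inside lin-39 stands above the rest in the pooled list and in both replicates, while the one at 28.1 is high in replicate 3 and low in replicate 2.

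The same stretch carried many summits, most of them below the threshold. The pooled list held 23 in the 29.4 kb from the end of lin-39 to the end of ceh-13, the 2 thresholded ones among them. That is 7.82 per 10 kb, against 2.99 per 10 kb over the nuclear chromosomes. Stretches of the same length tiled along the nuclear chromosomes had a median of 8 pooled summits, and 3.90% of 3407 held at least 23. The count was 15 in replicate 2 and 18 in replicate 3, and 5.22% and 5.34% of tiles held at least as many in those lists. The tiles are a description of these lists and give no test.

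The strongest weaker summits of this stretch lay around ceh-13. One was 587 bp upstream of its start at 7555073, with a pooled signal of 21.7 and rank 3997; the nearest summit was 8 bp away in replicate 2 (signal 4.63, rank 8869) and 69 bp away in replicate 3 (signal 12.5, rank 4406). The other was in an intron of ceh-13, 988 bp from the start at 7556648, with a pooled signal of 19.4 and rank 4559; replicate 3 had a summit 42 bp away (signal 14.4, rank 3673), and the nearest in replicate 2 was 122 bp away (signal 7.5005, rank 5047). Both had the highest −log10 q in the pooled list, the value that every thresholded peak also has, and their signals lay below the threshold. The next in the pooled list was the distal summit at 7546672, 8988 bp upstream of ceh-13, with a signal of 15.7 and rank 5789. Replicate 3 had it 7 bp away (signal 9.16), and replicate 2 had nothing within 100 bp.

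Of the 21 sub-threshold pooled summits in the windows of lin-39 and ceh-13, 13 had a summit within 100 bp in replicate 3, 5 in replicate 2 and 2 in both. Over all 26939 sub-threshold nuclear pooled summits the shares were 49.6% in replicate 3, 33.0% in replicate 2 and 14.6% in both. Within lin-39 itself the pooled list held 7 summits, and apart from the strong one their signals were low, the highest 8.30, at 518 bp upstream of the internal start. Counting by gene, 22 pooled summits fell in the window of lin-39 and 16 in that of ceh-13, where the median over all protein-coding genes was 6. At least 22 were found for 2.06% of all protein-coding genes and at least 16 for 9.21%. These are not separate facts about each gene, since 15 of the summits belong to both windows.

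At mab-5 and egl-5 no summit passed the threshold. The 40.3 kb covered by their windows held 5 pooled summits, or 1.24 per 10 kb against 2.99 over the nuclear chromosomes, and 79.8% of tiles of that length held at least as many. Each replicate held 8 there, or 1.98 per 10 kb, against 1.95 over the nuclear chromosomes in replicate 2 and 2.50 in replicate 3. At least 8 were found in 45.3% of tiles in replicate 2 and 58.5% in replicate 3. The strongest for mab-5 was at 7793329, 9875 bp upstream, with a pooled signal of 11.1 and rank 8330; it lay closer to the start of cyk-7 (1967 bp), and was found in replicate 2 (signal 2.87, 25 bp away) and in replicate 3 (signal 8.16, 7 bp away). Next came an intron summit of mab-5 at 7778761, with a pooled signal of 6.90 and a match in replicate 2 alone (signal 5.22, 19 bp away), and one upstream with a signal of 2.67. For egl-5 the pooled list held 2 summits. The stronger was in an intron, 391 bp from the nearest start at 7814771, with a signal of 7.52 and rank 12495, and neither replicate had a summit within 100 bp of it. The weaker lay in the 3′ UTR with a signal of 3.998.

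One peak at mab-5 appeared in a single replicate and not in the pooled list. Replicate 3 had a summit at 7779793, in an intron 3661 bp downstream of the mab-5 start, with a signal of 21.5 and rank 2151 of 25112, behind only the lin-39 and linc-57 sites among the Hox summits of that list. No pooled peak overlapped it, and the nearest pooled summit was 1032 bp away. Of the 2151 peaks of replicate 3 at least as strong, 5 had no overlapping pooled peak, against 22.5% of the whole list. Among the 3060 strongest peaks of replicate 3 taken alone, mab-5 had a summit, and lin-39 and ceh-13 kept theirs. The other mab-5 summits seen in replicate 3 alone had signals of at most 5.35.

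**Figure D2:**
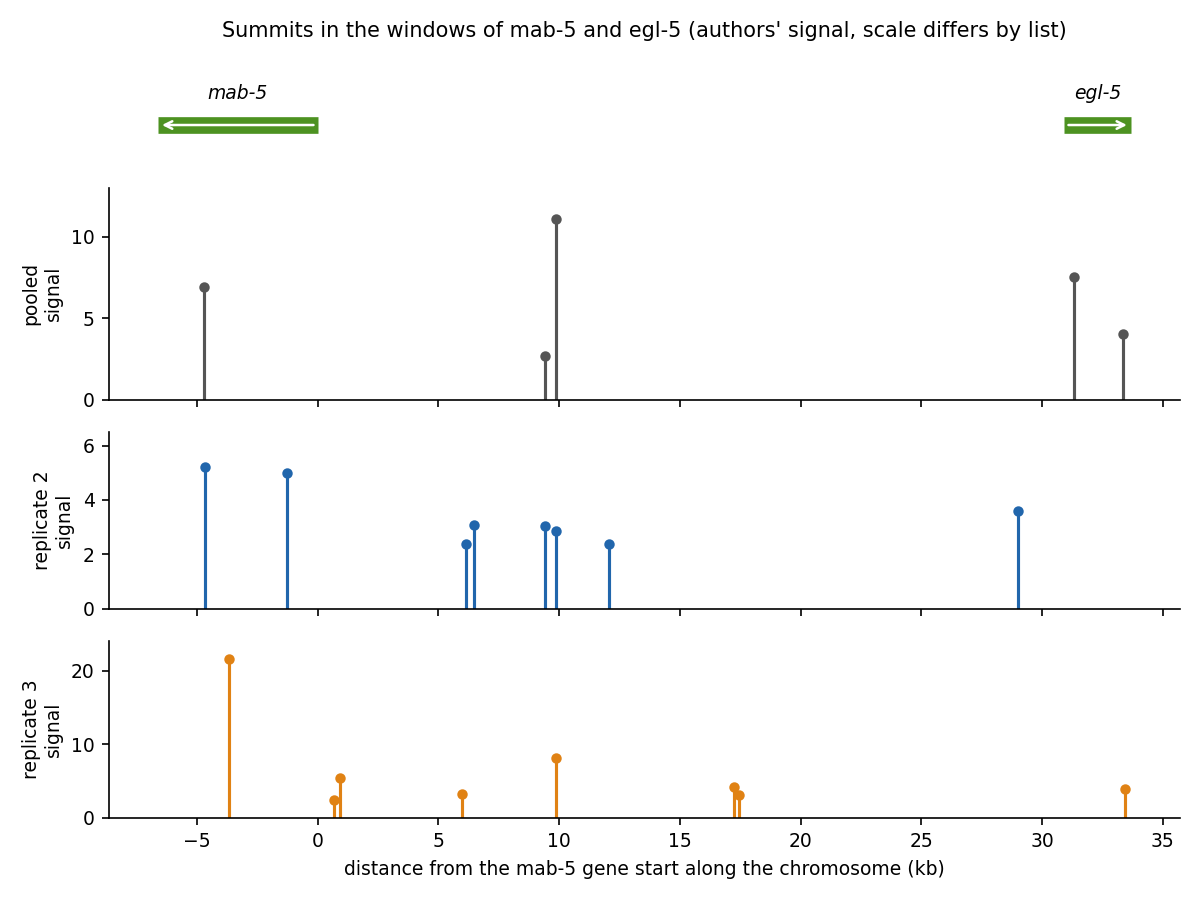
Signal of each summit (vertical axis, the authors' values, a different scale in each list) against distance from the mab-5 gene start in kb, for the pooled list, replicate 2 and replicate 3; arrows show the direction of each gene. The replicate 3 summit of 21.5 inside mab-5 has no counterpart in the pooled list or in replicate 2, and no summit of the region is in the thresholded list.

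At php-3 and nob-1 no summit passed the threshold, and the signals were low. Their 30.1 kb held 7 pooled summits, or 2.33 per 10 kb, and 57.1% of tiles of that length held at least as many. The density was 1.99 per 10 kb in replicate 2 and 0.997 in replicate 3, against 1.95 and 2.50 over the nuclear chromosomes. At least as many were found in 44.6% of tiles in replicate 2 and 79.7% in replicate 3. The count was near the tile median in the pooled list (7 against 8) and replicate 2 (6 against 5). In replicate 3 it was below the median (3 against 6). For nob-1 the strongest pooled summit was 13312 bp upstream at 12097628, with a signal of 10.3 and rank 8985. It lay closer to the start of cest-12 (9913 bp), a protein-coding gene that overlaps the nob-1 window. It was found in replicate 2 (signal 2.94, 10 bp away) and not within 100 bp in replicate 3. The next was 707 bp upstream of the nob-1 start at 12085023, with a signal of 9.63 and rank 9659, and here replicate 3 had it (signal 6.15, 6 bp away) and replicate 2 did not within 100 bp. Another lay in an intron with a signal of 5.22, without a match in either replicate. The only pooled summit of php-3, in an intron, had a signal of 3.76 and rank 23673, with a summit at the same base in replicate 2 (signal 3.13). None of the 7 was found within 100 bp in both replicates.

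**Figure D3:**
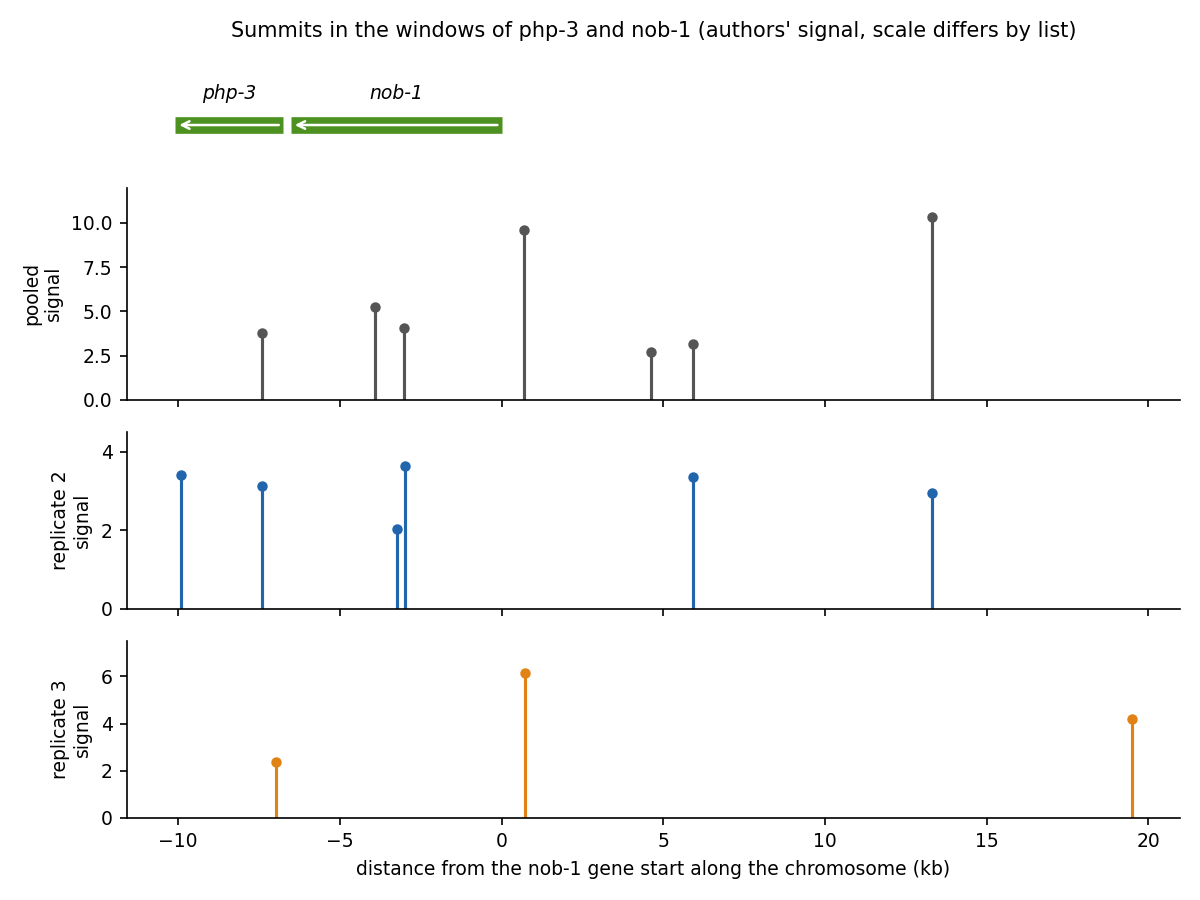
Signal of each summit (vertical axis, the authors' values, a different scale in each list) against distance from the nob-1 gene start in kb, for the pooled list, replicate 2 and replicate 3; arrows show the direction of each gene. All signals are low, at most 10.3 in the pooled list, 3.64 in replicate 2 and 6.15 in replicate 3.

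Beyond the windows, the nearest thresholded summits of mab-5, egl-5, php-3 and nob-1 lay at differing distances. From the start of mab-5 the nearest was 12.2 kb away, with a signal of 30.001, and lay closest to the start of snu-23. It lay at 7771228, past the gene end at 7776835, a side that the windows do not cover. For egl-5 the nearest was 40.3 kb away, at rpl-35 (signal 169). For php-3 and nob-1 the nearest were 57.3 kb and 60.1 kb from the gene starts, with signals of 29.9 and 37.8, nearest to brp-1 and to Y75B8A.7.

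In the relaxed lists every Hox gene had at least 1 summit, which says little, because 86% of all protein-coding genes had one in the pooled list, 89% in replicate 2 and 89.5% in replicate 3. The number of summits differed between the genes, and for php-3 it comes from a window of 3575 bp, far shorter than that of the median gene. In replicate 2 they were 11 for ceh-13, 14 for lin-39, 7 for mab-5, 2 each for egl-5 and php-3 and 4 for nob-1, where the median gene had 4. In replicate 3 they were 12, 17, 7, 3, 1 and 2 in the same order of genes, where the median gene had 5. Per 10 kb of window, replicate 2 had 5.59 summits for php-3, 5.18 for lin-39 and 5.14 for ceh-13, and the php-3 value rests on 2 summits. The mab-5 counts were higher in each replicate than in the pooled list (3), and 4 of the 7 in replicate 2 and 6 of the 7 in replicate 3 had no overlapping pooled peak, against 23.9% of the whole list in replicate 2 and 22.5% in replicate 3. The windows of mab-5 and egl-5 overlap, so their counts are not separate. The summits at 7795516 in replicate 2 and at 7800683 and 7800913 in replicate 3 count for both genes. All of these lie closest to the start of cyk-7 and have no overlapping pooled peak. Across all windows the median signal of the summits was 5.25 in the pooled list, where it was 6.31 over all nuclear peaks, 3.40 in replicate 2 (4.24 over all) and 4.87 in replicate 3 (4.88 over all).

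**Figure D4:**
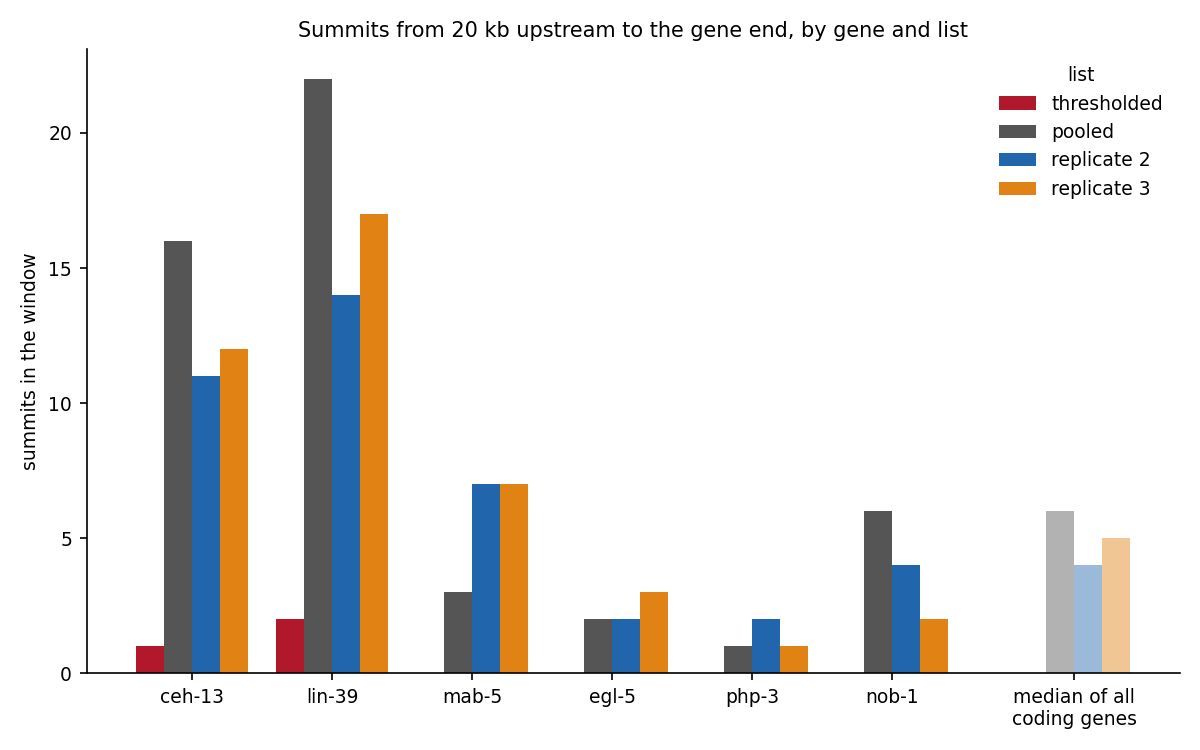
Number of summits from 20 kb upstream to the gene end (vertical axis) for each Hox gene in the 4 lists, with the median over all protein-coding genes in pale bars at the right, which is 0 for the thresholded list. In the pooled list the counts of lin-39 (22) and ceh-13 (16) stand above the median of 6 and those of the other genes do not.

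**Figure D5:**
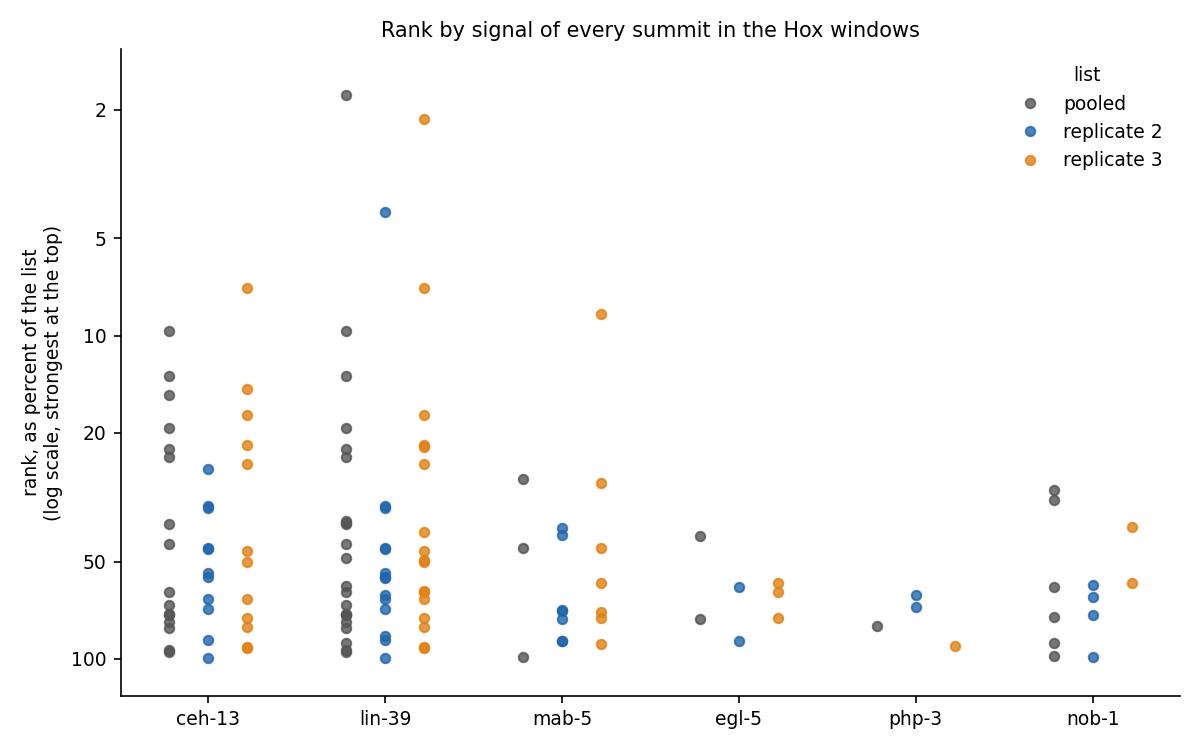
Rank by signal of every summit in the Hox windows, as a percent of its list on a log axis with the strongest at the top, for the pooled list, replicate 2 and replicate 3. The lin-39 summit (rank 540 of 29970 in the pooled list) is at the top in each list, and in the mab-5 column the summit of replicate 3 (rank 2151 of 25112) has no point at its height from the other lists.

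Most of the weaker Hox summits were found in 1 replicate at most. Of 33 sub-threshold pooled summits in the windows, 3 had a summit within 100 bp in both replicates (9.09%), against 14.6% of 26939 over the nuclear chromosomes. In 8 cases (24.2%) neither replicate had one, against 32.0% of all. The 2 thresholded Hox summits were matched in both replicates, the linc-57 one by a peak near the bottom of the list in replicate 2, as were 92.6% of all 3031 nuclear thresholded summits.

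The words near the summits were compared with those at all summits, within 50 bp of the summit and on both strands. The words were AGTGAAAG or AGCGAAAG (the core of the PRDM1 consensus), AGACGCAG and GAGAGAGA (words that led an earlier scan of these data), and TGATNNAT (the core of a Hox-Pbx composite site). The lin-39 summit carried the PRDM1 core and the Hox-Pbx core side by side. In the lin-39 motif site printed above, the capitals are ATCAATCA, which reads TGATTGAT on the other strand, followed directly by CTTTCACT, which reads AGTGAAAG on the other strand. The PRDM1 core was near 7.09% of all nuclear thresholded summits and the Hox-Pbx core near 7.82%. Both were near 14 of 3031 (0.462%), and the lin-39 summit was the 1 thresholded summit where they abut, which was looked for after the pair had been seen. The pair lies from 35 to 50 bp from the summit base, toward the gene end, and within the 5′ UTR.

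None of the 4 words was within 50 bp of the thresholded summit in linc-57. Among the 35 pooled Hox summits, 2 carried the PRDM1 core (5.71%, against 1.75% of all 29970), the lin-39 summit and the distal summit of ceh-13, where GAGAGAGA runs directly into AGTGAAAG. The Hox-Pbx core was near 6 of the 35 (17.1%, against 8.24% of all), including TGATTAAT near the summit 587 bp upstream of ceh-13. AGACGCAG was near 1 and GAGAGAGA near 1 of the 35, against 2.45% and 2.75% of all. With 100 bp to each side the PRDM1 core was near the same 2 pooled Hox summits, against 2.84% of all, and the Hox-Pbx core near 8 (22.9%), against 16.1% of all. None of the words was in the mab-5, egl-5 or nob-1 sequences printed above. A match of letters is not evidence of a bound site, and its absence from a window of 101 bases says nothing about the protein.

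Other genes of the Hox pathway were read from 3 lists of factors that work with Hox proteins, act on Hox genes or respond to them. The lists were drawn up with earlier results of these data known, and their windows, unlike those of the Hox genes, did not stop at any neighbour. Of 18 regulators of Hox expression, 13 had a thresholded summit in the window (72.2%, against 40.2% of all protein-coding genes), and for 8 (44.4%) a summit lay nearest to their own start, against 11.3% of all. The strongest was at nhr-25, a nuclear receptor gene of the epidermis, with 5 summits and a top signal of 258 (rank 28), 159 bp from a start of the gene; the replicates gave it 110 (rank 33) in replicate 2 and 155 (rank 26) in replicate 3. The gene of the MTA-type chromatin factor EGL-27 had 16 summits, 14 of them nearest to its own start, with a top signal of 155 at 5732 bp upstream, found at ranks 83 in replicate 2 and 133 in replicate 3. Next was lin-59, a trithorax-type gene, with 4 summits, of which the strongest (149) lay nearer to glh-4.

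Weaker promoter-side summits were found for other regulators. They lay 410 bp upstream of lin-49 (signal 70.5), 297 bp upstream of sor-1 (69.1), 1619 bp upstream of pop-1 (62.2), 247 bp upstream of sor-3 (29.4) and 600 bp upstream of sop-2 (27.9). The genes sor-1, sor-3 and sop-2 encode repressors of Hox genes that act like Polycomb proteins, and pop-1 encodes the TCF factor of Wnt signalling. The replicates ranked some of these sites differently. That of lin-49 was at rank 2375 in replicate 2 and 331 in replicate 3, and that of sor-3 at 3964 in replicate 2 and 1517 in replicate 3. That of sop-2 went the other way, at 1786 in replicate 2 and 7587 in replicate 3. For the Wnt gene egl-20 and the beta-catenin gene bar-1 the summits were closer to other genes, mtr-4 and F43E12.1. Those of vab-7, sem-4 and lin-22 were likewise closer to unc-119, ubql-1 and vrp-1. The gene unc-119 is the one mutated in this strain. The sites of egl-20, sem-4 and vab-7 were weak in replicate 2, at ranks 11805, 12560 and 6690. In replicate 3 they were at ranks 1364, 1814 and 1413. Those of bar-1 and lin-22 differed less, at ranks 1097 and 3224 in replicate 2 and 1189 and 2268 in replicate 3. No thresholded summit was found for mig-14, pal-1 or the Polycomb-complex genes mes-2, mes-3 and mes-6, although mes-2 had a pooled summit of 23.3. The count of 13 regulators rests in part on replicate 3. Without it, the 3060 strongest peaks of replicate 2 gave 8 of 18, against 40% of all protein-coding genes.

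Of 5 cofactor genes 2 had a thresholded summit (40%, against 40.2% of all). The Pbx-type gene ceh-20 had 3, the strongest of them (89.2) at the start of rfc-4 and the one nearest its own start, 801 bp away, with a signal of 54.5. The Meis-type gene unc-62 had 2, the stronger with a signal of 49.1 in a 5′ UTR, 821 bp from a start of the gene, and with signals of 18.9 in replicate 2 and 31.4 in replicate 3. The Pbx-type genes ceh-40 and ceh-60 and the Meis-related gene psa-3 had none, and the pooled list held none at all in the window of ceh-40.

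Of 10 genes known as Hox targets 3 had a thresholded summit (30%, against 40.2% of all), and in 1 it was nearest to the gene's own start. That was egl-18, a GATA factor gene of the epidermis, with a signal of 68.8 at 10548 bp upstream, and with signals of 30.1 in replicate 2 and 36.1 in replicate 3. For mig-13, which guides migrating neuroblasts, the strongest of 3 summits (95.7) lay nearer to ztf-16, and for the Wnt receptor gene lin-17 the only one (29.1) lay 199 bp from the start of cpz-1. The mig-13 summit was at rank 450 in replicate 2 and 346 in replicate 3. That of lin-17 was weaker in both, at rank 6842 in replicate 2 and 6304 in replicate 3. The strongest pooled summit of spon-1 (27.01) lay just below the weakest thresholded peak (27.08).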

How the data were processed

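The measurement was chromatin immunoprecipitation and sequencing of whole L2 larvae, with blmp-1 given as antibody and sonication for shearing, per the labels. Per the deposited file descriptions, a relaxed list of peaks and background on ce11 was made for each replicate and for both together, against a control (not analysed here), and a thresholded list was made from these by reproducibility. The sources used here name no aligner, peak caller or version. The authors deposited a signal for each peak, with no statement of its scale. The −log10 q that the authors deposited has a ceiling, so peaks were ranked by signal. Lists on ce10 were not used.

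Genes came from Ensembl release 115 and sequence from RefSeq, both on WBcel235, and no peak passed a chromosome end. Counts, distances and motif matches were computed with Python 3.11.15 using pandas 2.3.3, NumPy 2.4.6 and SciPy 1.17.1; matplotlib 3.10.9 drew the plots. A summit was taken as the peak start plus its offset, limited to the last base of the peak. It was matched in a replicate when the nearest summit there lay within 100 bp. Window counts, matching and motif search were tested on simulated data. With 1 group there was no contrast to test, and no p-value was computed. The rule for named genes took the 6 Hox genes, their thresholded summits, the strongest 3 pooled summits of each, protein-coding genes whose start is nearest to those summits, and up to 3 genes of each pathway list by strongest thresholded summit. Further Hox summits and the other listed genes that appear by name were named after their values were seen. The members, lists and words were chosen with earlier results of these data known. Alternatives were other reaches and stops of the window, other peak lists, other matching distances and a wider motif window. The list at the q ceiling and the window past the gene end were chosen after seeing the data.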

Additional observations from a re-analysis of the deposited data

How the results depend on the processing

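The main limits are 2 replicates, unknown depth and a threshold set on pooled signal. With windows of 10 kb and of 5 kb upstream 1 Hox gene (lin-39) had a thresholded summit, against 27.2% and 19.2% of all protein-coding genes, and with 5 kb the windows held 1 summit. With windows that stopped at the next protein-coding gene the 2 genes and 2 summits were the same and the background was 14.9%. The stronger 1530 peaks left 1 gene and 1 summit, against 24% of all genes. Taking the 3060 strongest peaks of 1 replicate alone gave from 1 Hox gene and 1 summit (without replicate 3: lin-39) to 3 genes and 3 summits (without replicate 2: lin-39, ceh-13 and mab-5), against 39.5% to 40% of all genes. The pooled peaks at the q ceiling gave 4 summits at the same 2 genes, against 51.4% of all genes, and extending windows 1 kb past the gene end gave 41.5%. Of the 18 regulators, 10 had a summit with 10 kb (against 27.2% of all genes) and 9 with 5 kb (against 19.2%). With the stronger 1530 peaks they numbered 7 (against 24%). With 1 replicate alone they numbered 8 without replicate 3 (against 40%) and 12 without replicate 2 (against 39.5%). The targets numbered 1 with 10 kb, 0 with 5 kb and from 2 to 3 with 1 replicate alone, against the same shares of all genes. Sub-threshold Hox summits matched in both replicates numbered 1 within 50 bp, 6 within 200 bp and 7 by overlap. The 2 thresholded Hox summits were matched in both replicates under each rule, and the counts of motif matches at them did not change with 100 bp to each side, while among the 35 pooled Hox summits GAGAGAGA was then near 2 in place of 1, against 4.87% of all. No paired analysis was possible because the labels give 1 group.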

Other observations

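A summit just outside the windows adds to the signal around ceh-13. It lay 177 bp past the end of ceh-13 at 7558218, with a pooled signal of 23.8 and rank 3579, a higher signal than at any site in the ceh-13 window except the one in linc-57. The nearest summits of the replicates were 100 bp away in replicate 2 (signal 10.2, rank 3465) and 59 bp away in replicate 3 (signal 13.4, rank 4061). Past the end of lin-39, at 185 bp, there was a weak pooled summit of 6.51. It had a weak summit 15 bp away in replicate 2 (signal 3.35) and 67 bp away in replicate 3 (signal 2.34). Past the end of mab-5 there were 2, of 10.5 at 471 bp and of 4.26 at 249 bp, neither with a replicate summit within 100 bp.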
